A study of Mus musculus with 15 samples.

Results

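The loops described here are the T cell receptor (TCR) alpha chain CDR3 peptides that end in SGSWQLI, the end given by the mouse joining segment TRAJ22. They were selected on the last 7 letters of the peptide alone, and no read count entered the choice of a loop, although the segment was singled out with earlier results of these data known. In all, 1708 of the 92219 CDR3 peptides listed in the series met this condition, 1.85% of them. Naive libraries listed 1303 of them, MP libraries 408 and Tumour libraries 269, and some were listed in more than 1 group.

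An alpha chain gene is put together in the thymus by joining a V segment to a J segment, and the CDR3 is the loop that spans the joint. Bases are trimmed and added at the joint, so that cells that use the same V and J segments still differ in the residues between them. The start of the loop comes mostly from the V segment and its end from the J segment, and the loop touches the peptide that is presented on an MHC molecule. A shared end therefore marks loops that could share a J segment, not loops that recognise the same peptide.

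All mice were C57BL/6 males in which a transgene fixes the TCR beta chain (TCRbtg). Receptors therefore differed from cell to cell mainly in the alpha chain. Naive cells (CD8b+ CD4neg CD44lo CD122neg) and MP, or memory-phenotype, cells (CD8b+ CD4neg CD44hi CD122+) were sorted from spleen and lymph nodes pooled, at 9 weeks of age, with 5 libraries for each. Tumour cells were sorted as CD8b+ CD4neg, with no gate on CD44 or CD122, from the prostate of TCRbtg TRAMP+/- males aged 27 weeks, again in 5 libraries. TRAMP mice carry an oncogene under the prostate-directed probasin promoter and develop prostate tumours. Tumour libraries thus differ from the rest in tissue, age, genotype and gate at the same time, and the parts of these in any difference cannot be told apart. The labels do not say whether a Naive and an MP library of the same number came from the same mouse.

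The values are reads per CDR3 peptide from a multiplex RT-PCR. Libraries held 547665 to 702663 reads in Naive, 574484 to 881988 in MP and 627205 to 943699 in Tumour, and the lowest listed count was 2. The labels give no cell numbers, and fewer cells with a loop cannot be told apart from less receptor RNA in each. The files hold alpha loops only, so the CD8 label has no marker gene here. As a check on other T cells, the invariant loop of iNKT cells had 5 reads at most among the Naive and MP libraries, and tumours did not list it. Loops with the pattern of MAIT cells had 81 to 152 reads in Naive libraries, 0 to 38 in MP libraries, and 0 to 60 in tumours, where 1 library listed them.

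The 2 most abundant TRAJ22 loops of each group are shown first, because the groups differ most plainly in the letters before the shared end.
Naive loop 1: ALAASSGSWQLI
Naive loop 2: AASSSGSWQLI
MP loop 1: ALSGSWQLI
MP loop 2: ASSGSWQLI
Tumour loop 1: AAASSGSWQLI
Tumour loop 2: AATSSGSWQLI
The MP pair has 9 residues, the Tumour pair has 11, and the Naive pair has 12 and 11. Naive loop 2 differs from Tumour loop 1 by A3S, and Tumour loop 2 differs from it by A3T. In this notation the residue of Tumour loop 1 comes first, then its position counted from the start of the loop, then the residue of the other loop.

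Over all 1708 loops, the residue before the shared end was S in 1092 (63.9%), P in 197, A in 100 and T in 86. The longer end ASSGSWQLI was carried by 385 (22.5%). Lengths ran from 7 to 17 residues, with 419 loops of 11, 545 of 12 and 406 of 13. The most frequent starts were AL in 454 loops, AA in 257, AV in 222 and AM in 197. Most of the loops were rare: 1081 (63.3%) were listed in 1 of the 15 libraries, 1126 (65.9%) never reached 10 reads in any library, and none was listed in more than 12 libraries.

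TRAJ22 loops took a larger share of reads in tumours than in either other group. In Naive libraries 1 to 5 they held 3.03, 3.30, 3.12, 3.15 and 3.19% of reads, a mean of 3.16 ± 0.0983% (SD, n = 5). In MP libraries 1 to 5 they held 1.81, 1.90, 2.23, 2.84 and 1.91%, a mean of 2.14 ± 0.424% (SD, n = 5). In Tumour libraries 1 to 5 they held 21.5, 19.4, 7.20, 5.07 and 4.57%, a mean of 11.6 ± 8.23% (SD, n = 5). The ranges of the 3 groups did not overlap, and Tumour 1 and Tumour 2 lay far above the other tumours. Since the segment was chosen with these shares known, they are a description and carry no test.

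Tumour loop 1 alone made up a large part of this. Without it, TRAJ22 loops held 11.5, 10.0, 3.10, 2.59 and 3.73% of reads in Tumour 1 to 5, a mean of 6.20 ± 4.24%. Tumour 1 and Tumour 2 then still lay above every Naive and MP library, while Tumour 3 lay within the range of Naive, Tumour 4 within that of MP, and Tumour 5 above both. By distinct loops rather than reads, TRAJ22 loops were 1.89 ± 0.0721% of the list in Naive, 1.90 ± 0.577% in MP and 5.42 ± 2.15% in tumours (SD, n = 5 each). On that measure Naive and MP overlapped and every tumour lay above both.

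**Figure D1:**
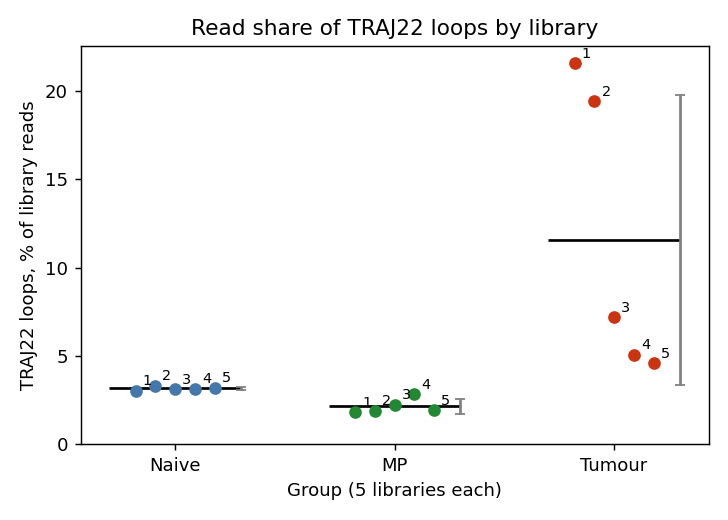
Share of TRAJ22 loops in the reads of each library, in percent, by group. Points are libraries with their number, lines are means and bars are 1 SD over 5 libraries. Tumour libraries lie between 4.57 and 21.5%, Naive libraries between 3.03 and 3.30% and MP libraries between 1.81 and 2.84%.

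Within the set, reads were spread over many loops in Naive libraries and concentrated on a few in tumours. The Shannon entropy of the shares, a measure of evenness in bits, was 4.93 ± 0.160 in Naive libraries, 4.27 ± 0.321 in MP libraries and 2.67 ± 0.395 in tumours (SD, n = 5 each). On average 96 loops were needed to reach 90% of the TRAJ22 reads of a Naive library, 31.4 in MP and 8.4 in a tumour. The most abundant loop of a library took 26.2 ± 2.75% of its TRAJ22 reads in Naive libraries, 27.2 ± 9.14% in MP libraries and 47.7 ± 6.88% in tumours. Naive libraries listed 278 to 573 TRAJ22 loops, MP libraries 48 to 226 and tumours 38 to 156. MP 1 and MP 5 listed 184 and 226, far more than the 49, 48 and 82 of the other MP libraries. They also held the most distinct loops of any kind among MP libraries. Whole lists of loops were likewise longest for Naive and shortest for tumours. The mean number of distinct loops of any kind was 24443 per Naive library, 6979 per MP library and 1512 per tumour. Evenness over all loops was not set beside that of the set. Whether TRAJ22 reads were more concentrated than those of other loops was therefore not tested.

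Libraries of a group shared many of their abundant loops, though not all. The 94 loops listed in all 5 Naive libraries held 87.3 ± 1.88% of Naive TRAJ22 reads. The 14 listed in all 5 MP libraries held 57.8 ± 16.4% of theirs, and the 14 listed in all 5 tumours held 73.5 ± 8.79%. Loops listed in 1 library of a group were the larger part of each list, with 830, 313 and 187 in Naive, MP and Tumour. They took a mean of 4.32, 20.9 and 3.39% of the TRAJ22 reads, and up to 37.7% in an MP library.

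The lists of different groups overlapped in part. Naive and MP shared 181 loops, which are 13.9% of the Naive list and 44.4% of the MP list. Naive and Tumour shared 86, or 6.60% and 32.0% of these lists, and MP and Tumour shared 36, or 8.82% and 13.4%. In all 3 groups 31 loops were listed, 1.81% of the set. Over all 92219 loops, Naive and MP shared 14.6% and 42.5% of their lists, Naive and Tumour 2.91% and 35.0%, MP and Tumour 6.21% and 25.7%, and 1220 loops (1.32%) were in all 3 groups. Similarity of the shares was taken as the Morisita-Horn index (1 when shares are identical, 0 when no loop is in common). It averaged 0.977 between Naive libraries, 0.720 between MP libraries (0.514 to 0.964) and 0.760 between tumours (0.495 to 0.966). All pairs with Tumour 5 lay at 0.614 or lower, and the other pairs of tumours at 0.848 or higher. Between groups the index averaged 0.0478 for Naive and MP, 0.00444 for Naive and Tumour and 0.00779 for MP and Tumour. These indices cover the TRAJ22 loops alone and were not tested.

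Loop length separated the groups. Loops of 9 or fewer residues held 53.5 ± 16.4% of MP TRAJ22 reads (30.9 to 69.5%), against 0.932 ± 0.228% in Naive and 0.0450 ± 0.0580% in Tumour libraries (SD, n = 5 each). Loops of 11 residues held 87.7 ± 12.4% of the reads in tumours, 48.1 ± 2.95% in Naive and 9.85 ± 6.40% in MP libraries. Loops of 12 residues held 0.719 ± 0.802% in tumours, 18.3 ± 5.20% in MP and 43.3 ± 2.86% in Naive libraries. No MP library overlapped a Naive or Tumour library in the share of the shortest loops, and no tumour overlapped another group in the share of 11 residues.

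The other loops of the same libraries were taken for comparison. Among reads of loops without this end, 9 or fewer residues made up 6.60 ± 0.224% in Naive, 17.0 ± 0.976% in MP and 6.08 ± 2.26% in tumours. Loops of 11 residues made up 31.3, 31.8 and 39.5% of these reads in Naive, MP and Tumour. For 10 residues the shares were 21.8, 16.3 and 9.66%, against 1.07, 7.84 and 0.0203% within the set, and for 13 or more they were 14.0, 9.97 and 21.7%, against 6.50, 10.6 and 11.5%. The higher share of short loops in MP was thus also seen outside the set, at a smaller size. Whether the lengths in the set and outside it shift differently was not tested.

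**Figure D2:**
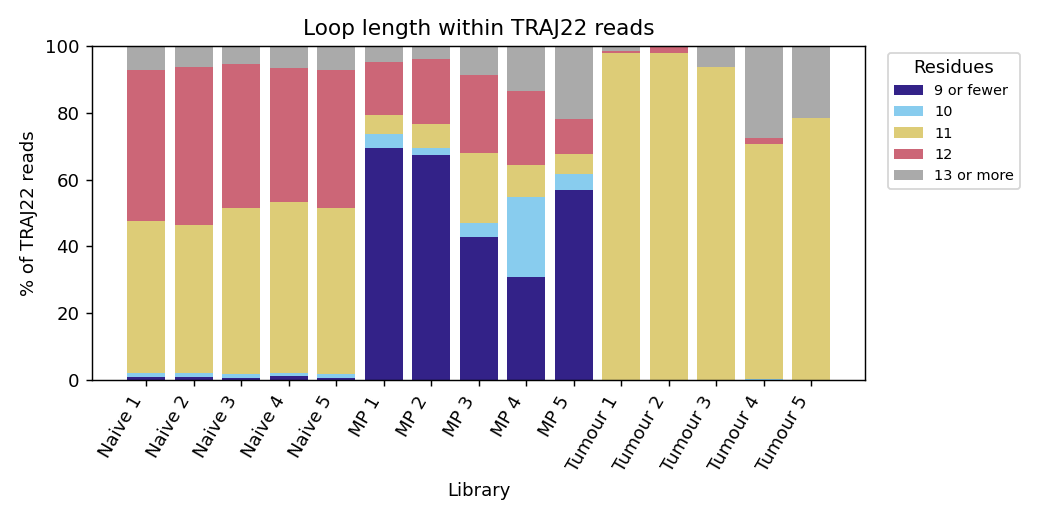
Share of TRAJ22 reads by loop length in each of the 15 libraries, in percent, stacked to 100. Loops of 9 or fewer residues take 30.9 to 69.5% in MP libraries, and loops of 11 residues take 70.6 to 97.9% in tumours.

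The residues before the shared end differed as well. Loops ending SSGSWQLI took 96.3 ± 1.20% of TRAJ22 reads in tumours, 85.3 ± 1.79% in Naive and 55.2 ± 5.91% in MP libraries (SD, n = 5 each). Loops that start with AA took 67.2% of the reads in tumours, 35.3% in Naive and 6.39% in MP libraries. Loops that start with AL took 37.7% in Naive, 39.8% in MP and 10.2 ± 12.8% in tumours. In Tumour 1 to 5 they took 1.94, 1.04, 0.0443, 26.8 and 21.3%, so the mean describes no single tumour. Loops that start with AF took 10.1% in Naive but 0.0124% in MP and 0.000249% in tumours. The starts AS and VS were mostly an MP feature, with 16.2 and 5.21% of MP TRAJ22 reads against 1.94 and 0.0452% in Naive. Mean net charge differed little between groups, at −0.0830 in Naive, −0.0612 in MP and −0.153 in Tumour.

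Single loops were tested with edgeR across all loops of a pair of groups that reached 10 reads in 3 or more libraries, and called at a Benjamini-Hochberg adjusted p under 0.05 over all of them. A TRAJ22 loop that passed this filter only through the group where it is high had to differ, so the counts of calls describe the loops tested and not the whole set. For MP against Naive, 123 of the 1708 loops were tested; 95 reached the filter within Naive and 30 within MP. Of these 123, 17 (13.8%) were higher in MP, against 12.6% of all 5954 loops tested. A further 62 (50.4%) were lower in MP, against 48.1% of all loops tested, and 44 were not called. Without MP 1 and MP 5, 11 of 113 were higher, against 356 of all 4867 loops tested. With all libraries, both shares lay near those of all loops tested, and the median log2 difference was −4.15 for TRAJ22 loops and −3.35 for all.

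The loops called higher in MP were short. Of the 17, 13 had 9 or fewer residues, 1 had 10 and 3 had 12, and 6 were listed in no Naive library. Together they held 1.21 ± 0.140% of MP reads and 0.0112% of Naive reads. Of the 62 called lower, 26 had 11 residues, 23 had 12, 10 had 13 or more, 2 had 10 and 1 had 9, and 50 were listed in no MP library. These 62 held 2.32 ± 0.0866% of Naive reads and 0.0358% of MP reads. Over loops of any kind, 42.5% of the MP list was also in Naive and 14.6% of the Naive list in MP. The counts of called loops not listed were not set against those of all called loops.

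MP loop 1, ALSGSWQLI, had 0.643, 0.668, 0.364, 0.488 and 0.576% of reads in MP 1 to 5. In Naive libraries it was listed each time, between 0.000569 and 0.00434%, and in tumours it was listed in Tumour 1 and Tumour 2 only, at 0.00255 and 0.00475%. Every MP library lay far above every other library. The mean was 268-fold higher in MP than in Naive, with a log2 difference of 8.06 ± 0.89 (SE; edgeR, adjusted p = 0.000632), and the log2 difference of Tumour from MP was −8.54 ± 2.34 (adjusted p = 0.0152; −9.71 without Tumour 2).

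MP loop 2, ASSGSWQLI, had 0.310, 0.252, 0.243, 0.0790 and 0.261% of reads in MP 1 to 5 and at most 0.00615% in a Naive library. MP 4 was the low library, yet it too lay above all Naive and Tumour libraries. The log2 difference from Naive was 6.37 ± 0.86 (edgeR, adjusted p = 0.000662). Of the tumours, Tumour 2 alone listed the loop, at 0.00372%, and the log2 difference of Tumour from MP was −8.23 (adjusted p = 0.0161, and 0.0505 without MP 1 and MP 5). Without Tumour 2 no tumour lists it.

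Other short loops followed with lower shares. ASGSWQLI averaged 0.0875 ± 0.0406% in MP and was listed in Naive 1 and Naive 2 only (log2 difference 5.94, adjusted p = 0.0160, and 9.86 without Naive 2). VSSGSWQLI averaged 0.0679 ± 0.0138% in MP and was also listed in 2 Naive libraries (7.36, adjusted p = 0.00168, and 8.03 without Naive 1). Neither was listed in any tumour, and both were called lower in Tumour than in MP (edgeR, adjusted p = 0.0103 for each). The remaining 9 loops of 9 or fewer residues called higher in MP had mean shares of 0.00197 to 0.0296%.

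The 3 loops of 12 residues called higher in MP began with AP or AL, and the loop of 10 residues, DASSGSWQLI, with D. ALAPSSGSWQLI averaged 0.0666 ± 0.0654% in MP, with MP 3 highest at 0.170%, against 0.00258% in Naive (log2 difference 4.68 ± 0.89, adjusted p = 0.00139, and 3.97 without MP 3). APSASSGSWQLI averaged 0.0637 ± 0.0493% in MP against 0.000412% in Naive (7.20 ± 1.33, adjusted p = 0.00127, and 7.81 without Naive 1). The third, APSPSSGSWQLI, named like DASSGSWQLI outside the naming rule, was listed in 4 MP libraries at a mean of 0.0269% and in no Naive library.

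Some abundant MP loops belonged to few libraries and were not called. AVISGSWQLI held 0.530% of the reads of MP 4 and was listed in no other MP library, while 4 Naive libraries listed it at up to 0.00498% (adjusted p = 0.124, and 0.0248 with no filter on reads). ATRPFASSGSWQLI held 0.247% of MP 4 and was listed nowhere else, so that it was not tested. APSSSGSWQLI was listed in 4 MP libraries at 0.0275 to 0.160% and in all 5 Naive libraries at 0.00769 to 0.0167% (log2 difference 2.48 ± 1.28, adjusted p = 0.121), and without MP 2, which did not list it, its adjusted p was 0.00423.

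Naive loop 1, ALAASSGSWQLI, had 0.832, 0.992, 0.810, 0.681 and 0.711% of reads in Naive 1 to 5. Among MP libraries it was listed in MP 2, MP 4 and MP 5, at 0.0456, 0.0707 and 0.0225%, and no tumour listed it. Its log2 difference in MP from Naive was −4.86 ± 1.73 (edgeR, adjusted p = 0.0321). Of the 10 fits that left out 1 library, 6 lost the call, namely the 5 that left out a Naive library and the one without MP 5 (adjusted p from 0.0194 to 0.0582). Without MP 4 the difference was −5.56. Against 3 reads per library, the floor used for a group that does not list a loop, it was at least 2064-fold lower in tumours than in Naive (adjusted p = 1.54e-05).

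Naive loop 2, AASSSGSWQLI, had 0.626, 0.560, 0.672, 0.779 and 0.729% of reads in Naive 1 to 5. MP 3 was the only MP library to list it, at 0.0279%, and Tumour 5 the only tumour, with 3 reads. Its log2 difference was −6.91 ± 2.33 in MP (edgeR, adjusted p = 0.0268) and −12.93 ± 1.58 in Tumour (adjusted p = 4.52e-05). Without MP 3 no MP library lists the loop and the fitted value in MP was −15.09, and without Tumour 5 no tumour lists it and the value was −15.13. Neither is a measured fold.

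AFASSGSWQLI, the third loop in Naive, averaged 0.211 ± 0.0459% there and was listed with 4 reads in MP 5 and 2 reads in Tumour 1. It was called lower in MP (log2 difference −10.60, adjusted p = 0.000662) and in Tumour (−11.54, adjusted p = 4.94e-05), sizes that rest on these few reads. AFSSSGSWQLI, with 0.0723 ± 0.00735% in Naive, AIDPSGSWQLI, with 0.0490 ± 0.00520%, and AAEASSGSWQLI, with 0.0411 ± 0.00988%, were listed in no MP library and no tumour. Against the floor these 3 were at least 165-fold, 112-fold and 93.9-fold lower in MP than in Naive (adjusted p = 0.000662 for each).

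Other abundant Naive loops were not called lower in MP. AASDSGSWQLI, at 0.126 ± 0.0346% in Naive, had 0.114% of MP 3 and 0.00117% of MP 5 (log2 difference −2.45, adjusted p = 0.332), and without MP 3 the difference was −8.66 with an adjusted p of 0.00172. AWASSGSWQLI, at 0.0390% in Naive, was listed in MP 4 alone (−4.15, adjusted p = 0.0914), but it was called without MP 4 (adjusted p = 0.000733) and by DESeq2 (0.0112). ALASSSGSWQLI had 0.0909 ± 0.00809% in Naive and 0.0476 ± 0.0416% in MP, where 4 libraries listed it (−0.93, adjusted p = 0.522). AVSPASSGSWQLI had 0.0435% in Naive and 0.0205% in MP (−1.08, adjusted p = 0.521). None of these 4 loops was listed in a tumour.

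**Figure D3:**
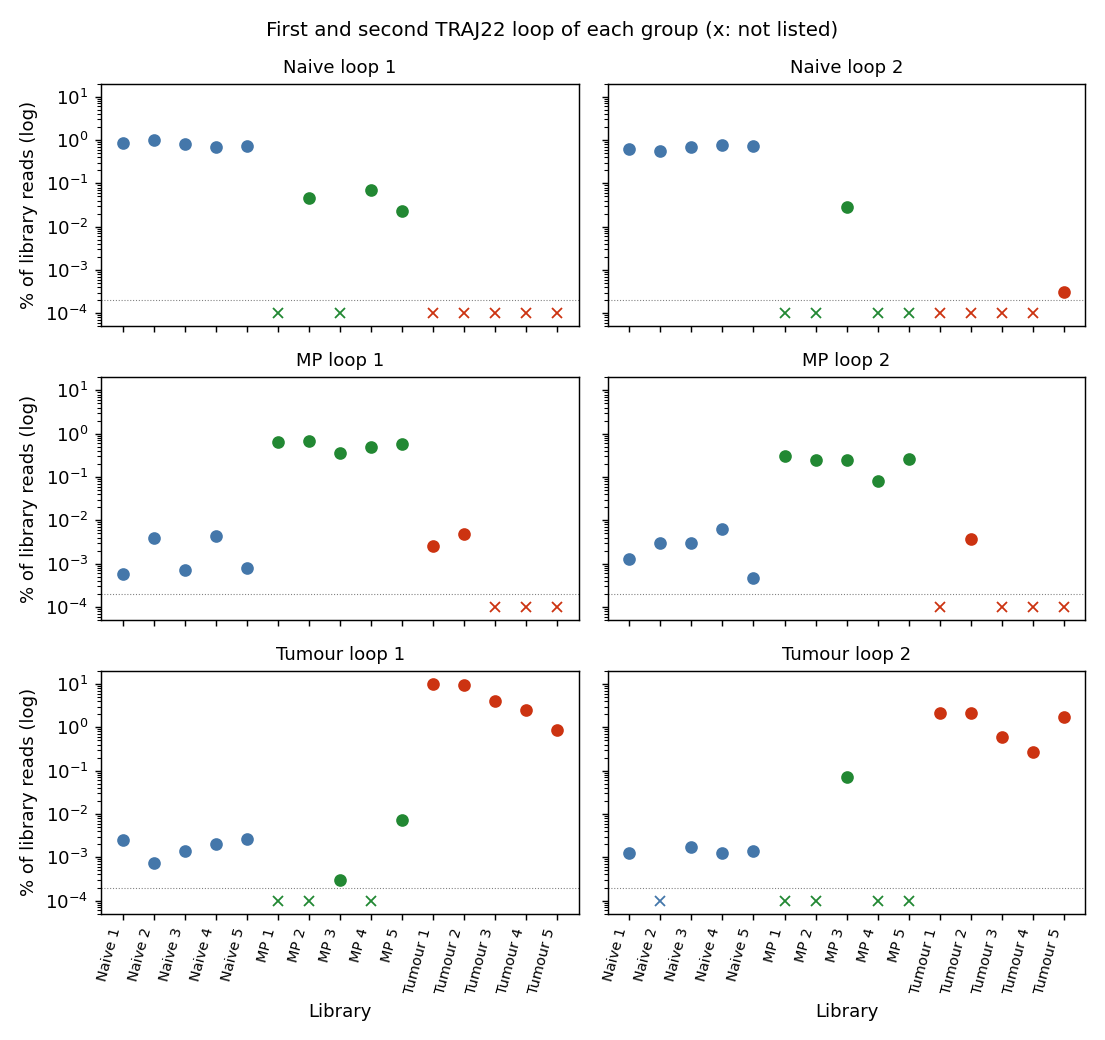
Share of reads of the first and second TRAJ22 loop of each group in all 15 libraries, in percent on a log axis, with crosses below the dotted line for libraries that do not list the loop. Each loop is high in all 5 libraries of its own group and lower, or not listed, in the other 10.

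The tumours were compared with MP and with Naive in turn. Both comparisons use the same tumour libraries, so their values stand side by side and do not support each other. Against MP, 56 TRAJ22 loops were tested, of which 21 reached the filter within Tumour and 30 within MP. Of these 56, 19 (33.9%) were higher in Tumour, against 7.68% of all 1666 loops tested, 27 (48.2%) were lower, against 66.0%, and 10 were not called. The median log2 difference was −3.94 for TRAJ22 loops and −7.57 for all loops tested. Against Naive, 116 were tested, 19 (16.4%) were higher, against 3.38% of all 4671 loops tested, 75 (64.7%) were lower, against 86.7%, and 22 were not called. That median was −7.14 for TRAJ22 loops and −7.42 for all. The segment was chosen with its tumour share known, and loops that passed the filter only through tumours had to differ. How many of all loops passed through each group was not set beside this. The contrasts with all loops are therefore a description and carry no test.

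In each comparison 16 of the 19 loops called higher in tumours had 11 residues and 3 had 13 or more. They held 10.1 ± 6.69% of tumour reads in the comparison with MP and 10.2 ± 6.87% in that with Naive. Of the 19 called against MP, 15 were listed in no MP library, and of the 19 called against Naive, which are in part other loops, 10 were listed in no Naive library. Of the 27 called lower than in MP, 17 had 9 or fewer residues and 23 were listed in no tumour. Of the 75 called lower than in Naive, 67 were listed in no tumour. Loops of any kind were mostly missing from the other lists as well. Tumours listed 6.21% of the MP list and 2.91% of the Naive list, and 25.7% of the Tumour list was in MP and 35.0% in Naive. The counts of called loops not listed were not set against those of all called loops.

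The 19 of a comparison are not independent of each other. In each comparison 1 of them was Tumour loop 1, 8 differed from it in position 2 or 3 only, 2 differed from it by 1 residue elsewhere and 8 lay further away. Folding each loop into a loop 1 residue away with at least 100 times its reads in that library left 9 called higher of 40 tested against MP and 9 of 91 against Naive. Over all loops these were 93 of 1487 and 120 of 4374. Without Tumour 1, 12 of 50 were called higher than in MP, beside 86 of 1584 over all loops. Without MP 1 and MP 5 together, 12 of 35 were higher and 11 lower, beside 68 and 225 of 642 over all loops. The calls against MP of ADASSGSWQLI, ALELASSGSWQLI and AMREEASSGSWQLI were then lost (adjusted p = 0.0697, 0.0575 and 0.0712), as was that of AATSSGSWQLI.

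Tumour loop 1, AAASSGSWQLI, had 10.0, 9.35, 4.10, 2.48 and 0.848% of reads in Tumour 1 to 5. By reads it ranked 2, 2, 2, 6 and 18 among all loops of these libraries. It was listed in every Naive library with 4 to 18 reads, at 0.000730 to 0.00267%, and in MP 3 and MP 5 with 2 and 49 reads. No library outside the tumours came near the lowest tumour. The mean was 3592-fold higher than in MP (log2 difference 11.79 ± 2.76, edgeR, adjusted p = 0.0107) and 2867-fold higher than in Naive (11.47 ± 1.21, adjusted p = 1.90e-05). The size against MP rests on MP 5, without which the log2 difference was 15.85.

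Tumour loop 2, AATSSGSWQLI, had 2.13, 2.17, 0.588, 0.263 and 1.72% of reads in Tumour 1 to 5, and in Tumour 5 it was the most abundant TRAJ22 loop. It was listed in 4 Naive libraries with 7 to 10 reads, and among MP libraries in MP 3 alone, at 0.0717%. The difference from Naive had a log2 of 10.21 ± 1.39 (edgeR, adjusted p = 8.81e-05). The difference from MP had a log2 of 6.58 ± 2.78 (adjusted p = 0.0473), and of 10 fits that left out 1 library, only the one without MP 3 kept the call (adjusted p from 0.00606 to 0.0875). It was also lost with TMM scaling (adjusted p = 0.0820) and with a filter of 50 reads (0.0567).

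ADASSGSWQLI, A2D to Tumour loop 1, had 2.56 and 1.23% of reads in Tumour 1 and Tumour 2, 0.0279% in Tumour 3, 2 reads in Tumour 4 and none listed in Tumour 5. It was at least 1742-fold higher in Tumour than in MP, where no library listed it (adjusted p = 0.0152), and its log2 difference from Naive was 9.73 ± 3.12 (adjusted p = 0.0134; 8.45 without Tumour 1). The mean thus rested on Tumour 1 and Tumour 2.

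AAISSGSWQLI, A3I to Tumour loop 1, had 0.669, 2.47, 0.0770, 0.121 and 0.153% of reads in Tumour 1 to 5. All 5 Naive libraries listed it, at 0.0179 to 0.0411%, and no MP library did. Of the 3 groups it was thus lowest in MP: at least 70.0-fold lower than in Naive (adjusted p = 0.000662) and, from the other side, at least 1595-fold higher in Tumour than in MP (adjusted p = 0.0103). Tumour exceeded Naive with a log2 difference of 4.51 ± 1.08 (adjusted p = 0.00309), or 3.05 without Tumour 2.

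AGASSGSWQLI was the most even of the abundant tumour loops, with 0.401, 0.543, 0.736, 0.257 and 0.319% of reads in Tumour 1 to 5. Its log2 difference was 10.65 ± 2.44 from MP (adjusted p = 0.0107) and 7.55 ± 1.31 from Naive (adjusted p = 0.000413). Among MP libraries MP 5 alone listed it, with 9 reads, and the fitted value without MP 5 was 14.72, which is no measured fold. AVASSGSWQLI had 0.796, 0.721, 0.544, 0.111 and 0.0655%, with log2 differences of 8.95 ± 2.19 from MP (adjusted p = 0.0107) and 7.63 ± 1.40 from Naive (adjusted p = 0.000588); without MP 5 the former was 9.59. All 5 tumours lay above all 10 other libraries for both loops.

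Other variants differed more between tumours. AEASSGSWQLI had 1.58% of reads in Tumour 1, 0.217% in Tumour 2 and 3 reads in Tumour 4, and reached 10 reads in too few libraries to be tested. APASSGSWQLI had 0.235, 0.185 and 0.0770% in Tumour 1, Tumour 2 and Tumour 4, was not listed in the other tumours, and was not called against MP (adjusted p = 0.0759) or Naive (adjusted p = 0.0811). Without Tumour 3 or without Tumour 5, which do not list it, it was called against each of them (lowest adjusted p 0.0446 and 0.0217), and DESeq2 called it against MP (adjusted p = 0.0336).

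Longer loops were abundant in some tumours. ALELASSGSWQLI, of 13 residues, had 0.141% of reads in Tumour 1, 3 reads in Tumour 2, and 1.27 and 0.934% in Tumour 4 and Tumour 5. It was listed in no Naive and no MP library, and was at least 1071-fold higher than MP (adjusted p = 0.0152) and at least 933-fold higher than Naive (adjusted p = 0.0116). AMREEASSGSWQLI, of 14 residues, had 0.420% in Tumour 3, 0.0283 and 0.0350% in Tumour 1 and Tumour 4, and 2 reads in Tumour 2. It too was listed in no Naive or MP library, and was at least 221-fold higher than MP (adjusted p = 0.0166).

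The tumour loops formed a group around Tumour loop 1, and its close variants are shown because summed reads differ by the position of the change. Shown are the 6 most abundant variants in tumours and, for positions 4 and 1, the most abundant there.
Tumour loop 1: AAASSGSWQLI
A2D: ADASSGSWQLI
A2G: AGASSGSWQLI
A2V: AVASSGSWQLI
A2E: AEASSGSWQLI
A3T: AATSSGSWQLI
A3I: AAISSGSWQLI
S4P: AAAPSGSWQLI
A1V: VAASSGSWQLI
In tumours 17 loops differed from it at position 2 alone and held 2.27 ± 2.30% of reads together, and 6 differed at position 3 alone and held 2.23 ± 1.76% (SD, n = 5). The 3 loops with another residue at position 1 held 0.00464%, the 6 at position 4 held 0.0289%, and position 5 gave 1 loop with 2 reads in Tumour 1. No loop that differed from it at positions 6 to 11 was listed in any tumour.

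Tumour loop 1 with its variants at positions 2 and 3 held 19.0, 17.3, 6.43, 3.49 and 3.11% of all reads in Tumour 1 to 5, which is 80.7 ± 11.2% of their TRAJ22 reads. The same loops held 1.01 ± 0.0841% of reads in Naive libraries, or 32.1 ± 2.98% of their TRAJ22 reads, and 0.0550 ± 0.0619% in MP libraries. In Naive the largest of them were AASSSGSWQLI and AFASSGSWQLI, which had at most 3 reads in any tumour. Naive libraries listed 17 loops that differed at position 2 and 14 at position 3, and none at another position. Leading loops of the other groups also had listed loops 1 residue away. In Naive libraries these held 23.4 to 30.6% of the reads of Naive loop 1 and 55.1 to 80.5% of those of Naive loop 2. In MP libraries they held 33.3 to 94.5% of the reads of MP loop 1 and 220 to 757% of those of MP loop 2. MP loop 1 and MP loop 2 differ from each other by 1 residue, so each is counted among the loops near the other. In MP 4, where the 757% was found, MP loop 1 had 2804 reads and MP loop 2 had 454. For Tumour loop 1 the range in tumours was 41.6 to 267%.

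The variants were compared with Tumour loop 1 within each tumour. At positions 2 and 3, 4 to 9 variants in a tumour had over 1% of its reads, and at the other positions none did. AGASSGSWQLI ranged from 4.00 to 37.6% of the reads of Tumour loop 1 over the 5 tumours, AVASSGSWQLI from 4.46 to 13.3%, AAISSGSWQLI from 1.88 to 26.5% and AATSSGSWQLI from 10.6 to 203%. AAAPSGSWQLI was listed in all 5 tumours at 0.209 to 0.819% of it, and VAASSGSWQLI at 0.0389 to 0.0937%. By the standard genetic code, 7 of the 17 residues at position 2 can be reached from A by a change of 1 base, as can 3 of the 6 at position 3 and all at positions 1, 4 and 5. In tumours these 7 loops held 2.21% of reads, of 2.27% for all loops that differ at position 2. The 3 at position 3 held 1.46%, of 2.23% for all there. Whether any of these loops are reading errors of Tumour loop 1 was not tested.

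**Figure D4:**
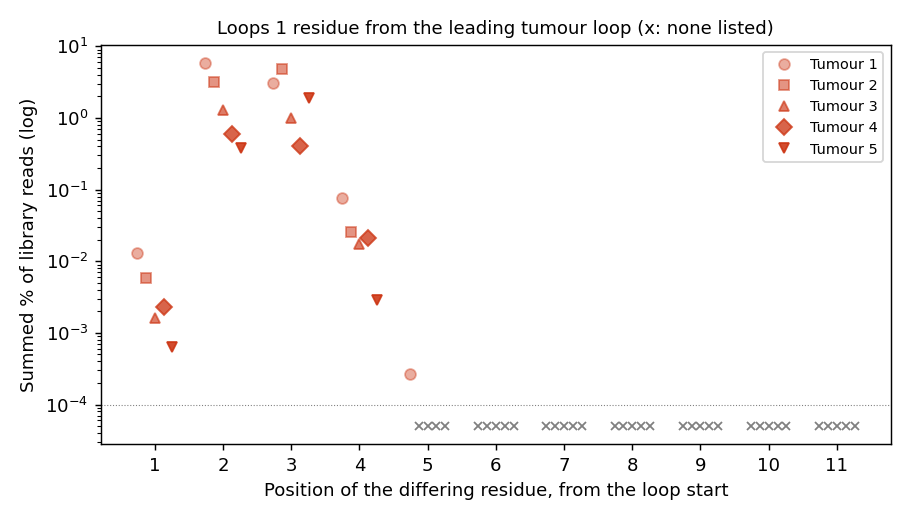
Summed share of reads of the loops that differ from Tumour loop 1 in 1 residue, in percent on a log axis, against the position of that residue, for each of the 5 tumours; crosses mark positions with no such loop listed. Positions 2 and 3 lie at 0.385% or more in every tumour, position 4 at 0.0772% or less, and positions 6 to 11 have none.

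The rule was also read at its edge. Loops that end in GSWQLI with another residue before it numbered 294 and stay outside the set. Their share of reads was 0.389 ± 0.464% in tumours, 0.151 ± 0.0582% in MP and 0.0836 ± 0.00877% in Naive libraries (SD, n = 5 each). The leading loops were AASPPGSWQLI in tumours, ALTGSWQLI in MP and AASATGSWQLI in Naive.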

How the data were processed

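Per the labels' protocols, RNA of sorted cells was taken with Trizol, and iRepertoire amplified the receptor transcripts by arm-PCR, a form of multiplex RT-PCR, and sequenced them. The authors deposited, for each library, counts of reads per CDR3 peptide, with no normalization. Not given in the sources used here are the alignment, the CDR3 calling, any error filter and any molecular identifiers. PCR reads are not independent molecules, so floors cover counting error only, and p-values measure the spread between libraries.

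Loops were selected by their end. The name TRAJ22 rests on general knowledge of the segment's end and was not checked against a reference sequence; the RefSeq gene table of GRCm38.p6 lists Traj22 between Traj23 and Traj21. A share is the reads of a loop over all reads of its library.

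Calls used edgeR 4.0.16 with limma 3.58.1 in R 4.3.3 (quasi-likelihood test, robust, total reads as library size without TMM), on all loops that reached 10 reads in 3 or more libraries of a pair of groups, at a Benjamini-Hochberg adjusted p under 0.05. SEs are the log2 difference over the square root of F. Where a group lists no reads of a loop, the fold was taken against 3 reads per library. The fit was run on simulated counts drawn around the pooled means of MP and Naive libraries, with the same spread for every loop. That setting has no tumours and does not copy loops confined to few libraries, so it does not bear on the calls here. Tables and plots used python 3.11.15, numpy 2.4.6, pandas 2.3.3 and matplotlib 3.10.9.

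Named were the 10 loops with the highest mean share in each group, the 5 called loops of highest mean share in each direction of each comparison, and the most abundant loop of each tumour. The members, lists and alternatives were chosen with earlier results of these data known. Alternatives were TMM, DESeq2 1.42.0, other filters, a replicate block, folded reading errors, other ends, and left-out libraries.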

Additional observations from a re-analysis of the deposited data

Results flagged for a closer look

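Dixon's criterion was applied to 33 shares in groups of 5 libraries, those of the whole set and of named loops. In 7 of them a library stood apart from the others. Unselected values meet this criterion in about 1 in 20 groups. The loops, however, were named for a high mean share in the same libraries, which 1 high library can bring about. The 7 are therefore a description and cannot be set against that rate. In Naive, AFASSGSWQLI was low in Naive 5, at 0.131% of reads with the next library at 0.212%, and AFSSSGSWQLI was high in Naive 2, at 0.0853% with the next at 0.0712%. In MP, AVISGSWQLI had 0.530% and ATRPFASSGSWQLI 0.247% of the reads of MP 4, and no other MP library listed either. In tumours, AAISSGSWQLI had 2.47% of the reads of Tumour 2, with the next at 0.669%. AEASSGSWQLI had 1.58% of Tumour 1, with the next at 0.217%, and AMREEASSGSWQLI had 0.420% of Tumour 3, with the next at 0.0350%.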

How the results depend on the processing

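The counts of calls moved with the filter, which also set how many loops were tested. Those of Tumour against MP also moved with a replicate block, and some counts moved with folding or with libraries left out. With no filter (at least 1 read in at least 2 libraries), the calls for MP against Naive were 43 higher and 310 lower of 549 tested, beside 2289 and 14848 of all 28731 loops. For Tumour against MP they were 63 and 74 of 178, beside 521 and 4670 of 6978, and for Tumour against Naive 45 and 421 of 550, beside 391 and 21912 of 24277. With 50 reads in 3 or more libraries, 22 of 46 loops were lower in MP than in Naive, beside 846 of 1742 over all loops. In Tumour 26 of 43 were lower than in Naive, beside 1069 of 1341. Tumour against MP gave 12 higher and 16 lower of 34, beside 94 and 494 of 813. Without MP 1 and MP 5, 11 of 113 were higher in MP than in Naive, beside 356 of 4867. Tumour against MP then gave 12 higher and 11 lower of 35, beside 68 and 225 of 642. With reading errors folded, 9 of 40 were higher in Tumour than in MP, beside 93 of 1487. Against Naive they were 9 of 91, beside 120 of 4374. Leaving out each library in turn gave 12 to 19 higher in Tumour than in MP, beside 81 to 122 over all loops.

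Libraries of the same number were treated as unpaired in the main fits, since the labels do not say whether they share a mouse. Their deviations correlated by at most 0.0470 between MP and Naive, where 4 of 5 MP libraries correlated best with their own number. These small values do not settle whether the libraries are paired. With a replicate block, Tumour against MP gave 12 higher and 10 lower of 56 loops, beside 57 and 265 of 1666 over all loops. AVISGSWQLI then turned to −4.16 in MP against Naive. The block lost the calls of AAISSGSWQLI in Tumour against Naive (log2 difference 3.09, adjusted p = 0.185) and of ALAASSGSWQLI and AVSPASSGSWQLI in Tumour against MP (adjusted p = 0.0679 and 0.0612). It added those of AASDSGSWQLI (−9.16, adjusted p = 0.00526) and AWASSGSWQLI (−9.53, adjusted p = 0.00531) in MP against Naive, and of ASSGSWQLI and APSSSGSWQLI in Tumour against Naive (adjusted p = 0.0296 and 0.0167). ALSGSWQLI, not called in Tumour against Naive, ranged from −1.66 to 0.00023 when 1 library was left out, the latter without Naive 4.

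Among named loops, all 91 values that other settings gave for the 13 called loops kept the call for MP against Naive, while 9 of 114 lost a call of Tumour against MP, and 1 of 111 a call of Tumour against Naive. These leave out the fits without 1 library. Of those fits, 6 of 130 lost a call of MP against Naive, 9 of 158 a call of Tumour against MP and 0 of 184 a call of Tumour against Naive. The mean share was 2.94% in Naive with loops of at least 10 reads, and 2.70% in Naive and 1.18% in MP for the end SSGSWQLI. DESeq2 gave no p to 7, 3 and 3 TRAJ22 loops in the 3 comparisons. Loops near 2 reads are at the limit of the lists, and their absence there was not tested.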
